A study of Mus musculus with 4 samples.

Results

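Interferon-stimulated genes are genes whose transcription rises when a cell senses an interferon. A list of 38 such genes was followed across the leukocyte classes of healthy mouse liver, gene by gene. Its members were taken by gene symbol from a list drawn up with earlier results of these data known. Of the 38 genes, 36 had a row in the deposited matrices, out of 32285 rows in all; Mx1 and Mx2 were not analysed here. The 36 genes held 35367 UMIs (unique molecular identifiers, counts of single transcript molecules) in the retained cells.

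The study isolated CD45+ cells, that is leukocytes, from livers of PA-GFP C57BL/6 mice, which carry a photoactivatable green fluorescent protein. All samples carry the label Photoactivation. The cells came from the portal vein (PV) zone, where blood enters the lobule, or from the central vein (CV) zone, where it leaves. Each zone has 2 libraries, called PV1 and PV2 or CV1 and CV2 here after their replicate numbers, and no sample lacks the transgene or the photoactivation. Whether each library is its own animal is not stated in the labels. The p-values therefore reflect variation among 4 libraries that may be no more than technical.

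Type I interferons signal through the receptor pair Ifnar1 and Ifnar2 and the kinases Jak1 and Tyk2 to a complex that includes Stat2 and Irf9 and binds a DNA element named the interferon-stimulated response element (ISRE). Interferon-gamma, made by T cells and NK cells, signals through its own receptor, and its target genes are known for another element, the gamma-activated site (GAS). The products include sensors of foreign nucleic acid, enzymes that block virus replication, GTPases that attack vacuoles with microbes, and regulators such as Irf7 that feed back on the response. Kupffer cells, the resident macrophages of the liver sinusoids, meet blood from the gut first.

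The promoter letters of 8 genes are printed because these genes span the patterns described afterwards: high in Kupffer cells, in neutrophils, in dendritic cells, or in T cells. Each stretch is 150 bases of build GRCm38.p6, written 5′ to 3′ on the gene's strand. It ends just before the gene's RefSeq start or its GENCODE start, whichever lies further upstream. For Ifit1, Ifi205 and Irf7 that is the GENCODE start. Matches to the ISRE core, which is GAAA, any 2 bases and GAAA again, are in capitals, on either strand.
Isg15, chr4:156200819-156200968, minus strand: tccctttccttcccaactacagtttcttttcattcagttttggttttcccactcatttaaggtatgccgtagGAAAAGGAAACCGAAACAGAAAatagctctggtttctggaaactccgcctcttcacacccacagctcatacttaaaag
Ifit1, chr19:34640721-34640870, plus strand: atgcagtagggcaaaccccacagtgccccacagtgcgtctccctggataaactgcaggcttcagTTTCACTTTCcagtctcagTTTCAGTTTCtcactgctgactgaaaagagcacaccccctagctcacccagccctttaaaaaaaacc
Rsad2, chr12:26456453-26456602, minus strand: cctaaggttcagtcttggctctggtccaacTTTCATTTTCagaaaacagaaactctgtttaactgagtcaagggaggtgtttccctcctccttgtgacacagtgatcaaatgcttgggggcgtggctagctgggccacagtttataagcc
Bst2, chr8:71537473-71537622, minus strand: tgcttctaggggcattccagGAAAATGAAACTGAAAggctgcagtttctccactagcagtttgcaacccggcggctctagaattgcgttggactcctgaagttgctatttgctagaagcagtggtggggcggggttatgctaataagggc
Ifi205, chr1:174031811-174031960, minus strand: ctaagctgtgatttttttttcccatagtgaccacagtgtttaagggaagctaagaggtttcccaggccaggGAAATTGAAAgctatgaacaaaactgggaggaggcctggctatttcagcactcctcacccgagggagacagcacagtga
Irf7, chr7:141266482-141266631, minus strand: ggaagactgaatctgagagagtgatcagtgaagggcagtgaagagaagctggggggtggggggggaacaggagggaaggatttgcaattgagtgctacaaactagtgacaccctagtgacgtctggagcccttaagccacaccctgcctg
Gbp7, chr3:142530186-142530335, plus strand: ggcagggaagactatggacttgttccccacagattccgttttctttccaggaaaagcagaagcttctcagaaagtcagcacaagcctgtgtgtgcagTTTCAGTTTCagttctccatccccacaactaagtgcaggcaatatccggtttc
Igtp, chr11:58199406-58199555, plus strand: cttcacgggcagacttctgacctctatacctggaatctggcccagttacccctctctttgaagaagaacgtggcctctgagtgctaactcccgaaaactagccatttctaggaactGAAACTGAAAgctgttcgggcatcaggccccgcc

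Isg15 held 3 overlapping copies of the core in its stretch, and Ifit1 and Bst2 held 2 each. The stretch before Irf7 held none, and so did the whole 300-base window around its start. Over windows from 250 bases before to 50 after the RefSeq start, 18 of the 29 listed genes with a window held the core on either strand (62.07%), against 3.993% of 27025 genes. The GAS motif TTCNNNGAA was in 6 of the 29 windows (20.69%), against 9.554% of all genes. The 6 were Bst2, Gbp7 (with 2 matches), Ifit2, Ifitm3, Igtp and Oas1a, so that the GTPases Gbp2 and Irgm1 had none. Motif matches overlap within a window where the spacing allows, and a match is a string of letters, not a measured binding site.

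Before any comparison, the libraries were compared with each other. Of 1939 distinct barcodes, 282 stood in more than 1 library and 152 in all 4. A shared barcode stayed only where 1 library had 70% or more of its UMIs, which left 1593 cells. The retained cells numbered 333 in PV1, 512 in PV2, 372 in CV1 and 376 in CV2, with median depths of 5369 to 6317.5 UMIs. Cells were placed in classes by detected marker genes, none of which is on the interferon list. The classes held 745 T cells, 219 Kupffer cells, 157 B cells, 97 NK cells or ILC1, 87 neutrophils, 79 type 1 conventional dendritic cells (cDC1), 70 monocytes or other macrophages, 40 cDC2 and 31 plasmacytoid dendritic cells (pDC). A Ptprc (CD45) UMI was found in 93.9% of retained cells. The share was 13.3% in 15 cells gated as sinusoidal endothelial, which went into no comparison. PV1 kept only 4 Kupffer cells, so Kupffer values rest on the other 3 libraries. At least 50% of the markers of another lineage were found in 57 of the 219 Kupffer cells. Without them the counts of genes called in Kupffer cells against other single classes differed by at most 1, other than against monocytes or other macrophages. Levels are given as CPM, a gene's counts per 1000000 summed UMIs of a class in a library. Because UMIs count transcript ends, gene length does not enter a CPM, but capture differs between genes and levels are compared across classes rather than across genes.

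The interferon-stimulated genes were far from uniform across leukocytes, and their summed level was highest in Kupffer cells among the 9 classes. Summed over the 36 genes, Kupffer cells held 6867 CPM in PV2, 7272 in CV1 and 7353 in CV2. T cells held 1532 to 1646 CPM in the 4 libraries, and B cells 1109 to 1497. The ranges of Kupffer cells and of these lymphocytes did not overlap. Monocytes or other macrophages reached 5519 ± 988 CPM (SD, n = 3), neutrophils 3183 ± 769 (n = 4) and cDC1 1879 ± 318 (n = 4). The 31 pDC reached 6610 CPM pooled. Bst2, Ifi27l2a and Ifitm3 held much of these sums. Over the other 33 genes Kupffer cells held 3136 ± 138 CPM (n = 3), monocytes or other macrophages 2051 ± 833 (n = 3), neutrophils 1637 ± 372 (n = 4), NK cells or ILC1 1232 ± 264 (n = 3), T cells 992 ± 55.0 (n = 4) and pDC 1347 pooled. Here monocytes or other macrophages reached 3002 CPM in PV2, above the 2977 of Kupffer cells in CV1, so these classes overlapped. Of 9 classes, Kupffer cells held the highest pooled level for 16 of the 36 genes, pDC for 7, neutrophils for 5 and monocytes or other macrophages for 3. The pDC were placed lowest for 12, but most of these were at 0 UMIs, often along with other classes. Ifit3, for example, had no UMI in pDC, in cDC1 or in NK cells or ILC1. Such ties were broken only by the order of sorting. The same order was not counted over all genes, so these counts only describe the list.

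**Figure D1:**
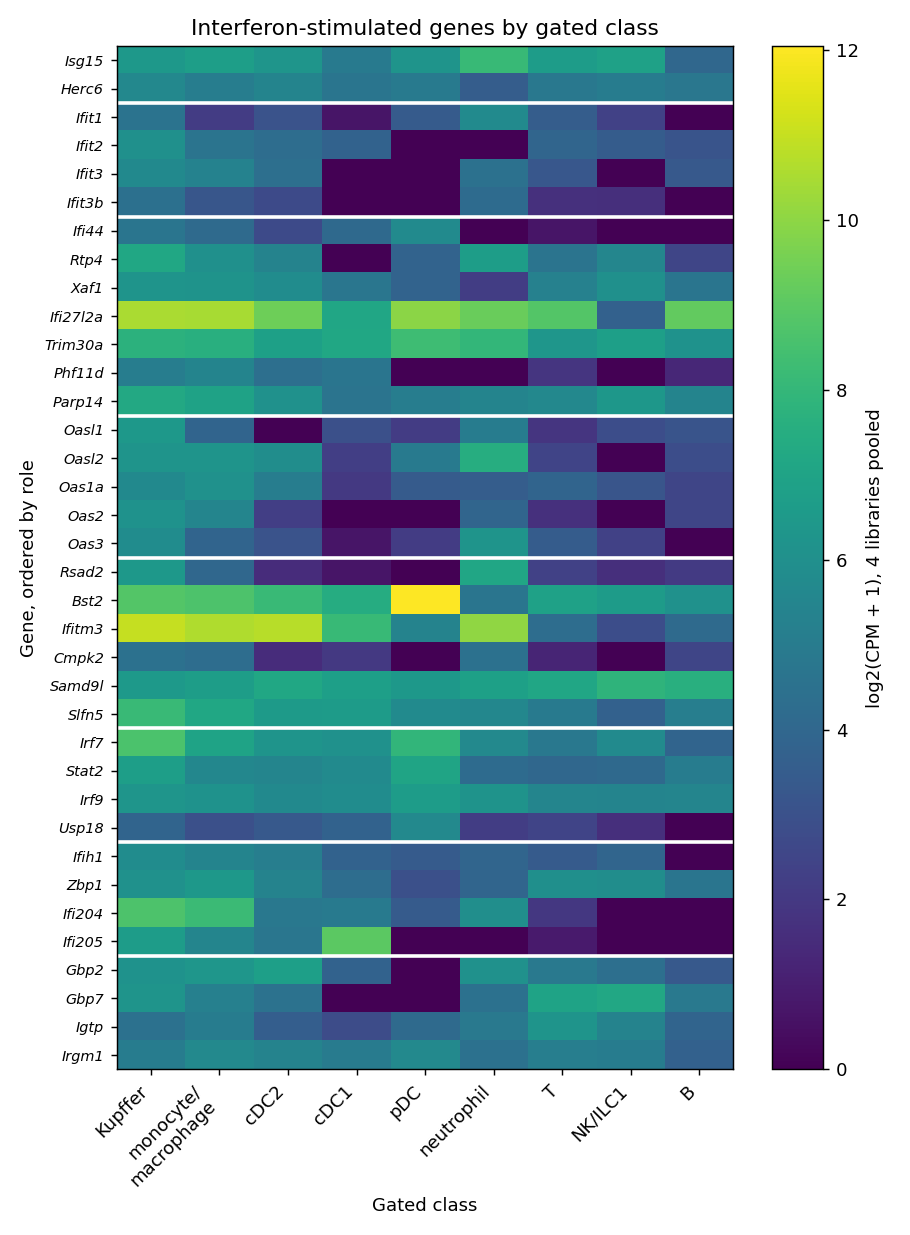
Level of each of the 36 genes (rows, grouped by role, white lines between roles) in 9 gated classes (columns), as log2 of pooled CPM plus 1 on a colour scale. The columns of Kupffer cells and of monocytes or other macrophages at the left are bright for most rows. Bst2 peaks in pDC at 4226 CPM and Ifi205 in cDC1 at 509.6 CPM.

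Differences between classes were tested with edgeR's quasi-likelihood test on UMI sums per class and library, with the library as a block. Only T cells, B cells, cDC1 and neutrophils had at least 10 cells in every library. A second fit, added after the class sizes were seen, took 7 classes with at least 10 cells in at least 3 libraries, and 28 of the 36 genes passed its filter on low counts. Genes pass such a filter through the class where they are high, so the counts that follow are descriptions. In Kupffer cells against the mean of the other 6 classes, 23 of the 28 genes were higher and 1 was lower, where 47.3% of all 5341 genes tested were called (33.9% higher and 13.4% lower). The median log2 difference of the 28 genes was 2.24, against 0.22 over all genes. Some classes held 0 UMIs of a gene, which sways a mean of logs. The differences given gene by gene in the next paragraphs are therefore from contrasts of single classes. Contrasts with a mean of classes return further on and carry this limit. They are used there for counts, for Ifi27l2a in neutrophils and for pathway genes.

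Against T cells, 22 of the 28 genes were higher in Kupffer cells and 3 were lower (63.8% of all genes called, 32.6% higher), with a median of 1.92 against -0.02 over all genes. Against B cells the counts were 24 higher and 1 lower (52.3%), against NK cells or ILC1 19 and 2 (47.9%, 25.7% higher), and against cDC1 23 and 2 (51.8%). Against neutrophils 16 were higher and 2 lower (56.5%, 39.8% higher). There the median of 1.41 stood beside 0.90 over all genes, so part of the difference was shared with genes at large. The Kupffer sums are common to these 5 contrasts.

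**Figure D2:**
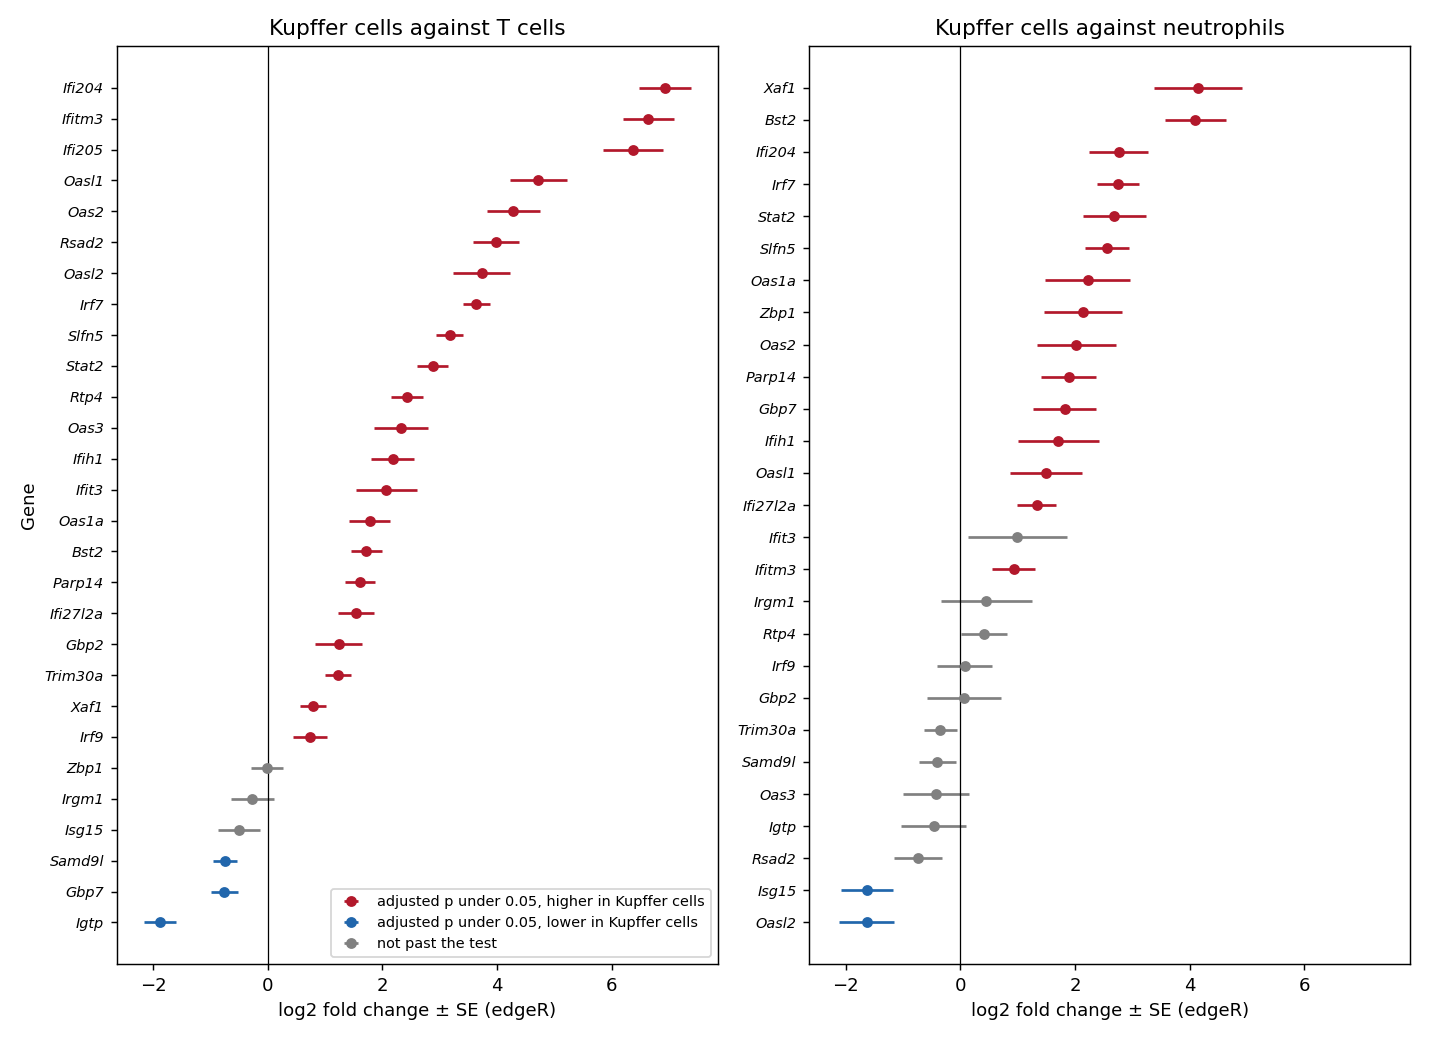
The log2 fold change ± SE of each tested gene with UMIs in both classes, Kupffer cells against T cells (left) and against neutrophils (right), edgeR quasi-likelihood test. Ifi204, Ifitm3 and Ifi205 lie at 6 or more to the right against T cells, while Igtp lies at -1.88; against neutrophils Isg15 and Oasl2 lie to the left.

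The regulators of the pathway were led by Irf7, the transcription factor that amplifies interferon transcription (chr7:141262706-141266481, minus strand). Irf7 stood at 398 CPM in Kupffer cells of PV2, 377 in CV1 and 378 in CV2, and Kupffer values are given in this order from here on. In monocytes or other macrophages it stood at 50.7 CPM in PV1, 139 in PV2 and 150 in CV2, and in T cells at 16.4 to 35.8. Every Kupffer library lay above every library of the 6 other tested classes. The difference from T cells was 3.64 ± 0.23 on the log2 scale (adjusted p = 1.7e-14, edgeR), and that from neutrophils 2.75 ± 0.37 (adjusted p = 2.6e-07). The pooled pDC held 246 CPM, the next highest level of the 9 classes. Stat2, which carries the activation domain of the ISRE-binding complex, followed a like order with 102, 110 and 118 CPM in Kupffer cells and 6.00 to 19.6 in T cells (2.88 ± 0.27, adjusted p = 1.1e-10); pooled pDC held 128. Irf9, its DNA-binding partner, was spread more evenly, with means of 81.7 ± 24.7 CPM in Kupffer cells and 43.5 ± 9.51 in T cells (0.74 ± 0.30, adjusted p = 0.030). That call was lost without PV1 (0.51, adjusted p = 0.12) and without CV2 (0.45, adjusted p = 0.24). Irf9 shares exon sequence on its strand with another gene model, so its counts are uncertain. Usp18, which removes Isg15 from proteins and dampens the receptor, was highest in pDC at 50.6 CPM pooled and held 13.7 in Kupffer cells.

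The nucleic acid sensors parted along lineages. Ifi204, a DNA sensor of the AIM2-like receptor family (chr1:173747293-173766943, minus strand), held 390, 436 and 399 CPM in Kupffer cells and 247, 360 and 234 in monocytes or other macrophages of 3 libraries. No UMI of Ifi204 was found in B cells or in NK cells or ILC1. The Kupffer level was at least 86.7-fold higher than in B cells and at least 65.8-fold higher than in NK cells or ILC1, set against 3 UMIs over the class without any. Against T cells it differed by 6.93 ± 0.45 (adjusted p = 3.4e-13). Its family member Ifi205 behaved otherwise. In cDC1 it stood at 459.5 and 672 CPM in the PV libraries and 410 and 488 in the CV libraries, whereas Kupffer cells held 92.5 to 112 in the same 3 libraries as before. The cDC1 and Kupffer libraries did not overlap, and Kupffer cells were lower by -2.69 ± 0.31 (adjusted p = 9.9e-08). Ifi205 (chr1:174011998-174031810, minus strand) shares 59.37% of the 90-base words at its transcript end with Ifi211, so reads of these genes may be mixed. Ifih1, the cytosolic sensor of long double-stranded RNA also known as Mda5, held 47.2 to 61.0 CPM in Kupffer cells and 6.85 to 12.6 in T cells (2.18 ± 0.38, adjusted p = 1.3e-05). Zbp1, a sensor of left-handed nucleic acid that triggers necroptosis, stood at like levels in Kupffer cells (64.7 ± 9.97 CPM) and T cells (62.7 ± 9.89), with a difference of -0.02 ± 0.28.

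**Figure D3:**
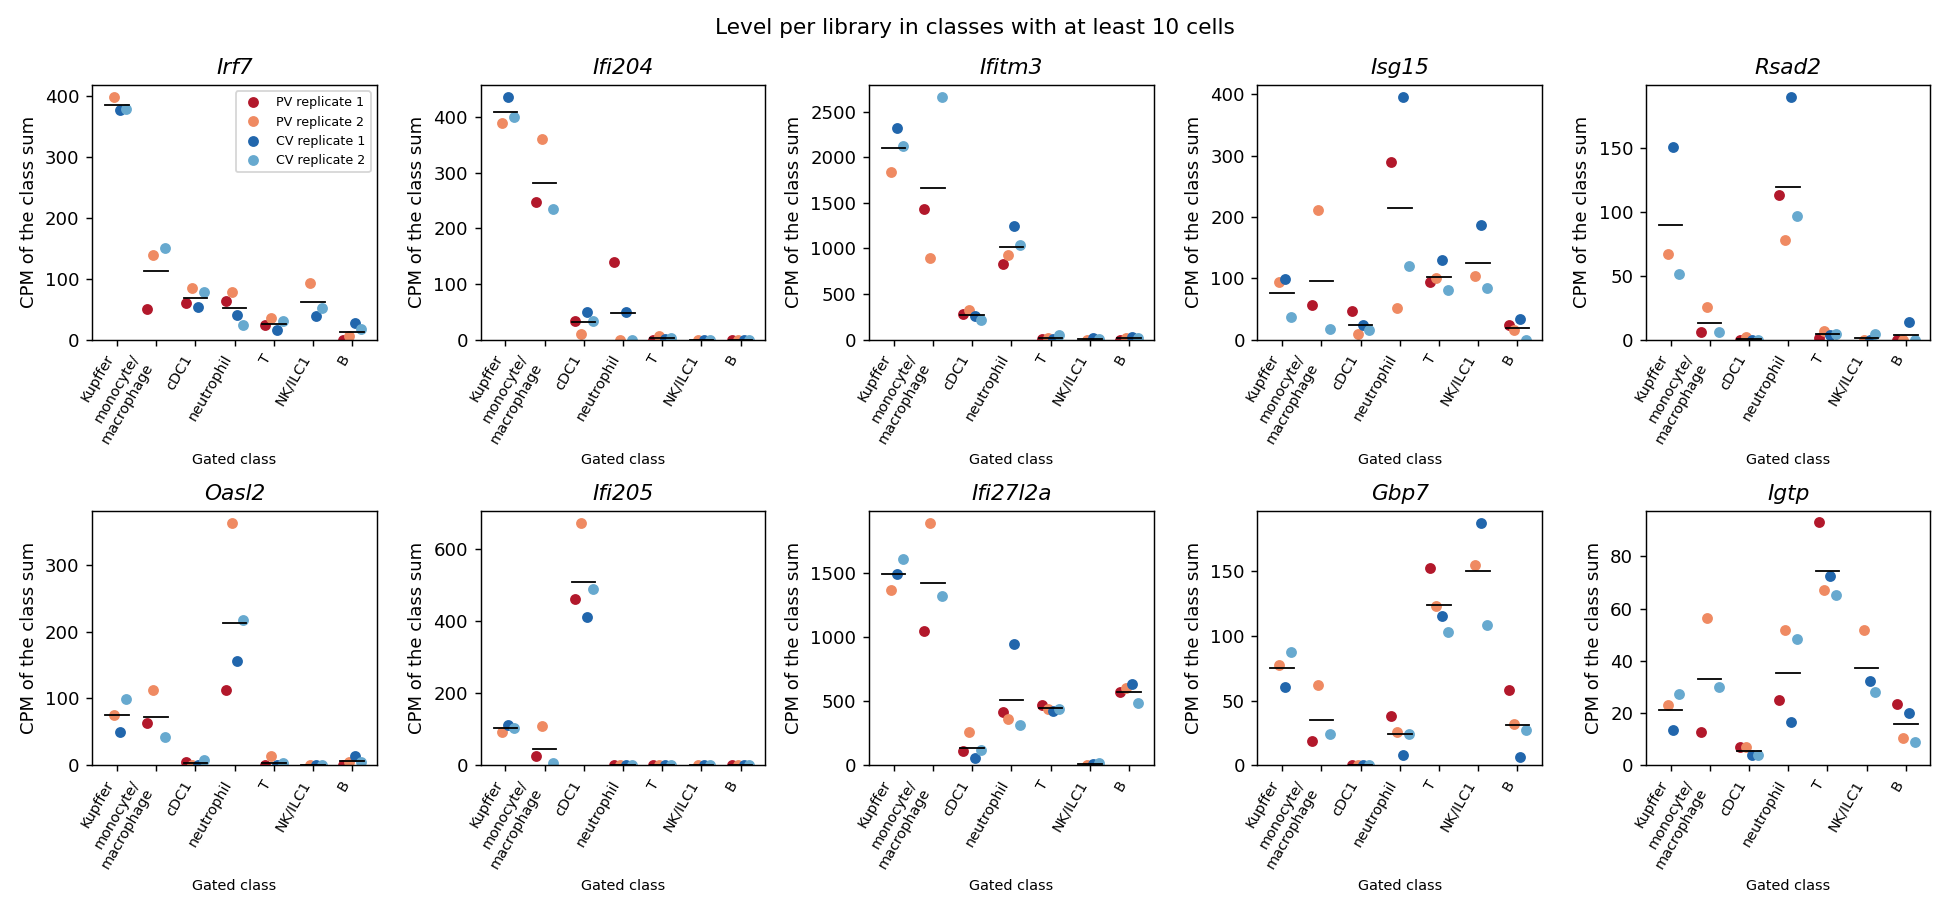
CPM of 10 genes in each library (points, coloured by library) for 7 classes with at least 10 cells in the library, with the mean as a black line and linear axes from 0. Irf7 is set apart in Kupffer cells, Ifi205 in cDC1, and Gbp7 and Igtp are highest in NK cells or ILC1 and in T cells, while the Isg15 points of most classes overlap.

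Isg15, which encodes a ubiquitin-like protein (chr4:156199424-156200818, minus strand), did not follow the macrophage pattern. In neutrophils it stood at 290 CPM in PV1, 51.8 in PV2, 396 in CV1 and 121 in CV2. Kupffer cells held 93.5, 98.8 and 36.3 CPM, and T cells 80.5 to 130. The classes overlapped, and Kupffer cells differed from T cells by -0.50 ± 0.36 (adjusted p = 0.22). Kupffer cells were lower than neutrophils by -1.63 ± 0.45 (adjusted p = 0.0029), a call that was lost without CV1 (-1.10, adjusted p = 0.19). Isg15 was lowest in B cells, at 0 to 33.6 CPM. Herc6, the mouse ligase that attaches Isg15, did not pass the filter; its pooled levels ran from 10.7 CPM in neutrophils to 48.1 in Kupffer cells.

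The 4 IFIT genes, whose products bind viral RNA, form a cluster on chr19 and were sparse. Ifit3 held 55.7, 51.6 and 42.4 CPM in Kupffer cells and 2.91 to 16.3 in T cells (2.07 ± 0.53, adjusted p = 0.0013). No UMI of Ifit3 was seen in cDC1 or in NK cells or ILC1. Ifit2 held 73.6, 35.9 and 75.7 CPM in the same Kupffer libraries and no UMI in neutrophils. In neutrophils Ifit1 rested on few libraries: it stood at 12.6 CPM in PV1 and 115 in CV1, with none in the others. Ifit3b reached 20.6 CPM pooled in Kupffer cells, and Ifit3 shares 6.569% of its end sequence with it.

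The OAS family makes or resembles enzymes that activate RNase L, which degrades RNA in infected cells. Oasl1, a member without that activity, stood at 54.7, 164 and 48.4 CPM in Kupffer cells against 1.43 to 3.43 in T cells (4.72 ± 0.50, adjusted p = 1.0e-09). Oas2 stood at 75.7, 80.8 and 30.3 CPM against 1.43 to 3.86 (4.29 ± 0.46, adjusted p = 7.4e-09). All Kupffer libraries lay above all T cell libraries for both genes. Oasl2 was instead highest in neutrophils, at 113 and 363 CPM in the PV libraries and 157 and 217 in the CV libraries. Kupffer cells held 49.4 to 99.9 CPM, below every neutrophil library, a difference of -1.64 ± 0.48 (adjusted p = 0.0046). Oas3 stood near the same level in both, with means of 57.5 ± 21.5 CPM in Kupffer cells and 62.0 ± 45.2 in neutrophils (-0.43 ± 0.58, adjusted p = 0.55), and had no UMI in B cells. Oas1a was highest in monocytes or other macrophages at 65.6 ± 11.1 CPM, but it shares 42.34% of its end sequence with Oas1g.

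Among other antiviral effectors, Ifitm3 and Slfn5 were highest in Kupffer cells, Rsad2 in neutrophils and Kupffer cells, Bst2 in pDC and Samd9l in NK cells or ILC1 and in B cells. Ifitm3, a membrane protein that stops viruses fusing in endosomes (chr7:141009586-141010770, minus strand), reached 1837, 2326 and 2127 CPM in Kupffer cells and 831 to 1245 in neutrophils. The 40 cDC2 held 1737 CPM pooled and cDC1 277. Lymphocytes held almost none, with 2.91 to 49.7 CPM in T cells, so Kupffer cells were higher by 6.64 ± 0.45 (adjusted p = 4.7e-14). Rsad2, or viperin, a radical enzyme that makes a chain-terminating nucleotide, stood at 67.3, 150 and 51.4 CPM in Kupffer cells and 77.7 to 190 in neutrophils. These ranges overlapped (-0.74 ± 0.41, adjusted p = 0.13), and both lay above the 1.45 to 6.44 CPM of T cells. Cmpk2, the kinase gene beside Rsad2, was scarcer at 21.8 CPM pooled in Kupffer cells and 21.4 in neutrophils. Kupffer marker genes summed to 151 to 618 CPM in the neutrophil libraries, against 18222 to 19962 in Kupffer cells; the part of macrophage RNA in the neutrophil values was not tested.

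Bst2, or tetherin, which holds budding virions at the cell surface (chr8:71534255-71537456, minus strand), is a known surface marker of pDC. It stood at 3231 CPM in the 1 pDC of PV1, 4368 in the 16 of PV2, 3660 in the 6 of CV1 and 4465 in the 8 of CV2. The next highest classes, Kupffer cells and monocytes or other macrophages, held 448 and 405 CPM pooled. Only 1 library had 10 pDC, so pDC levels have no test. Slfn5, a member of the Schlafen family, stood at 300.5, 220 and 309 CPM in Kupffer cells and 22.2 to 35.6 in T cells (3.18 ± 0.23, adjusted p = 3.5e-13). Samd9l, a restriction factor of poxviruses, went the other way. It was highest in NK cells or ILC1 (238 ± 31.0 CPM, n = 3) and B cells (200 ± 34.8, n = 4), and Kupffer cells, at 65.1 to 95.6 CPM, were lower than B cells by -1.37 ± 0.24 (adjusted p = 1.5e-05).

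The 4 GTPases linked to interferon-gamma differed among themselves: Gbp7 and Igtp were highest in NK cells or ILC1 and in T cells, and Irgm1 and Gbp2 were not. B cells and cDC1 were low in all 4 together, at 71.1 ± 30.6 (n = 4) and 50.2 ± 15.6 CPM summed (n = 4). Kupffer cells held 207 ± 83.0 (n = 3). Gbp7, a guanylate-binding protein (chr3:142530342-142550149, plus strand), stood at 153 and 123 CPM in T cells of the PV libraries and 115 and 103 in those of the CV libraries. NK cells or ILC1 held 155, 187 and 108 CPM, and Kupffer cells 60.6 to 87.8. All T cell libraries lay above all Kupffer libraries (-0.76 ± 0.24, adjusted p = 0.0078), though without PV2 the call was lost (-0.59, adjusted p = 0.13). In cDC1 no UMI of Gbp7 was seen, so the level in T cells was at least 68.6-fold higher. Igtp, an immunity-related GTPase also called Irgm3 (chr11:58199556-58207591, plus strand), stood at 65.1 to 93.0 CPM in T cells and 13.5 to 27.2 in Kupffer cells (-1.88 ± 0.28, adjusted p = 6.4e-07). T cells were the highest of the 7 classes for Igtp, with every library above every NK cell or ILC1 library of at least 10 cells. Both Gbp7 and Igtp overlap other gene models on their strand, which makes their counts uncertain. Irgm1 showed like levels in T cells (35.0 ± 1.53 CPM) and Kupffer cells (32.8 ± 21.7), with a difference of -0.27 ± 0.38. Gbp2 was higher in Kupffer cells than in T cells, at 77.7 ± 43.6 against 28.2 ± 1.43 CPM (1.24 ± 0.41, adjusted p = 0.0096), a call lost without CV2 (0.89, adjusted p = 0.15) and with DESeq2 (1.51, adjusted p = 0.066).

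Among the remaining genes, Ifi27l2a was abundant in most classes but low in NK cells or ILC1. Every cDC1 library also lay below every T cell and B cell library. Ifi27l2a stood at 1364, 1495 and 1610 CPM in Kupffer cells, 427 to 470 in T cells and 489 to 631 in B cells. In NK cells or ILC1 it stood at 0, 12.9 and 18.8 CPM in the 3 libraries with at least 10 such cells, apart from every T cell library. Rtp4, a chaperone-like inhibitor of flavivirus RNA synthesis, stood at 150, 133 and 154 CPM in Kupffer cells and 18.2 to 30.8 in T cells (2.43 ± 0.29, adjusted p = 1.9e-08). It had no UMI in cDC1, where 3 UMIs would give 1.82 CPM. Trim30a was highest in pDC at 311 CPM pooled, and in neutrophils and Kupffer cells it held 251 ± 99.1 and 211 ± 25.2 CPM. Parp14, an ADP-ribosyltransferase, held 136 to 153 CPM in Kupffer cells and 39.4 to 58.2 in T cells (1.60 ± 0.26, adjusted p = 3.1e-06). The models of Rtp4, Parp14 and Herc6 overlap another gene on their strand, so these counts are uncertain too. Xaf1, a pro-apoptotic factor, was low in neutrophils, with no UMI in 3 of 4 libraries and 3.56 CPM pooled, against 38.8 in T cells. Ifi44 reached 54.0 CPM in pDC, and Phf11d, found at 42.3 CPM in monocytes or other macrophages, shares 9.186% of its end sequence with Phf11c.

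Within the 4 classes with 10 cells in every library, 17 of the 36 genes passed the filter. In T cells against the mean of the other 3 classes, 5 were higher and 5 lower (54.3% of 4138 genes called, 36.9% higher), and in B cells 3 and 4 (40.9%, 14.1% lower). In cDC1 7 were higher and 6 lower (57% called, 37.2% higher and 19.8% lower), and in neutrophils 6 were higher and 1 lower (61.4%), with a median of 0.59 against -0.59 over all genes. These shares lay near or below the background for T cells, B cells and neutrophils. In the fit of 7 classes, monocytes or other macrophages had 17 higher and 0 lower of 28 (24.6% called, 2.81% lower), and 8 were called without PV2. In that fit the lymphocytes and cDC1 had both directions, with 3 higher and 6 lower in T cells (49.2%), 2 and 7 in B cells (35%), 3 and 4 in NK cells or ILC1 (27.4%, 8.35% lower) and 5 and 9 in cDC1 (46.1%, 29.8% higher). Neutrophils had 9 higher and 3 lower (54.2%, 20.3% higher). Among the 9, Ifi27l2a (0.76 ± 0.30, adjusted p = 0.031) rested on CV1, without which its value was -0.0064, and was not called without PV1 (0.72, adjusted p = 0.072).

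Neighbouring classes were then compared in pairs. In T cells against NK cells or ILC1, 3 of 17 genes tested were called (11.7% of all genes called, 6.51% higher). Ifi27l2a was higher in T cells by 5.29 ± 0.32 (adjusted p = 5.0e-15, edgeR) and Igtp by 1.19 ± 0.36 (adjusted p = 0.025), while Samd9l was lower by -0.60 ± 0.19 (adjusted p = 0.035). With DESeq2 only 1 of the 3 was called. Kupffer cells against monocytes or other macrophages, an added pair with at least 8 cells in 3 libraries, had 4 of 27 genes called, all higher in Kupffer cells (19.7% called). They were Oasl1 (2.43 ± 0.62, adjusted p = 0.0035), Rsad2 (1.86 ± 0.53, adjusted p = 0.0095), Stat2 (1.17 ± 0.41, adjusted p = 0.039) and Irf7 (1.09 ± 0.30, adjusted p = 0.0072). None of the 4 was called with DESeq2, and 1 gene, Ifitm3, was called without CV2. Ifi204, Ifi27l2a and Ifitm3 differed by 0.19 ± 0.28, -0.10 ± 0.27 and 0.34 ± 0.29, not past the test.

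T cells with a UMI of Cxcr6, a receptor of liver-resident T cells, were set against naive-like T cells, also as an added pair. In the order PV1, PV2, CV1 and CV2, Isg15 stood at 93.5, 115, 114 and 94.7 CPM in the Cxcr6 cells and at 32.7, 13, 0 and 30.3 in the naive-like cells. The libraries did not overlap, and the difference was 2.07 ± 0.45 (adjusted p = 0.00086, edgeR, 11.7% of all genes called). Ifi27l2a was lower in the Cxcr6 cells by -0.65 ± 0.19 (adjusted p = 0.017). The naive-like class held 8, 27, 9 and 23 cells, with 46710 to 164957 UMIs of all genes per library. Its Isg15 levels therefore rest on few molecules, and so does the lack of overlap. Without PV2 neither gene was called. Without CV2 Isg15 alone was called, and without CV1 4 genes were called, with Gbp7 and Herc6 added.

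The ligands themselves were almost absent. No UMI of any Ifna gene was found in the 1593 cells, and Ifnb1, Ifnk and Ifnz had 2, 2 and 3 UMIs in all. Ifng was the exception, with 1756 UMIs in T cells, where 279 of 745 cells held at least 1, and 254 UMIs in NK cells or ILC1, where 45 of 97 did. Kupffer cells held 12 UMIs of Ifng in 8 of 219 cells. Of 53 pathway genes outside the list, 50 had a row and 24 were tested in the fit of 7 classes. In Kupffer cells 12 of the 24 were higher and 2 lower than the mean of the other 6, where 33.9% of all genes were called higher and 13.4% lower. They were led by the RNA sensor Tlr7 (4.05 ± 0.43, adjusted p = 3.8e-09), the double-stranded RNA sensor Tlr3 (2.80 ± 0.56, adjusted p = 0.00014), and the receptor chains Ifngr2 (2.52 ± 0.29, adjusted p = 1.3e-08) and Ifnar2 (1.55 ± 0.15, adjusted p = 1.3e-10). In T cells 6 were higher and 5 lower, a share of calls near the 49.2% of all genes. They were led by Ifng (6.94 ± 0.36, adjusted p = 7.9e-15) and Socs1, an inhibitor of the receptor kinases (4.04 ± 0.32, adjusted p = 1.8e-11), with Irf5 (-2.91 ± 0.35) and Irf8 (-2.66 ± 0.61) lowest. The Ifng value is against a mean of classes of which B cells, cDC1 and monocytes or other macrophages held 1 Ifng UMI each. NK cells or ILC1 held Ifng in a larger share of their cells than T cells did. In cDC1 7 were higher and 7 lower, where 29.8% of all genes were called higher and 16.3% lower, led by Tlr3 (7.54 ± 0.27, adjusted p = 3.4e-18) and the lineage factor Irf8 (4.46 ± 0.17, adjusted p = 8.4e-20).

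The spread over single cells was described with 11 transcripts typical of the type I response, namely Ifit1, Ifit2, Ifit3, Ifit3b, Isg15, Rsad2, Oasl1, Oasl2, Cmpk2, Usp18 and Ifi44. At full depth, 24 of 219 Kupffer cells held at least 6 of them (10.96%, 95% Wilson interval 7.48% to 15.8%, counting error only), against 2 of 745 T cells. These 24 cells had a median of 12607.5 UMIs, against 6225 in the other Kupffer cells. Without the Kupffer cells carrying another lineage's markers, 14 of 162 held at least 6 (8.64%, 5.22% to 14.0%). With every cell thinned to 2000 UMIs, 96 shallower cells left out, 0 of 189 Kupffer cells reached 6, which allows a share of up to 1.59%. At that equal depth at least 2 of the 11 transcripts were found in 41 of 189 Kupffer cells (21.7%, 16.4% to 28.1%), 16 of 82 neutrophils (19.5%, 12.4% to 29.4%) and 10 of 65 monocytes or other macrophages (15.4%, 8.58% to 26.1%). The share was 15 of 728 in T cells (2.06%, 1.25% to 3.37%) and 0 of 91 in NK cells or ILC1, which allows up to 3.30%. Without thinning, the shares with at least 2 were 58.9%, 32.2%, 38.6%, 9.13% and 4.12% in these 5 classes. By library the thinned Kupffer count was 24 of 108 in PV2, 10 of 48 in CV1 and 6 of 30 in CV2. Without cells carrying another lineage's markers it was 30 of 132 in all (22.7%, 16.4% to 30.6%).

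**Figure D4:**
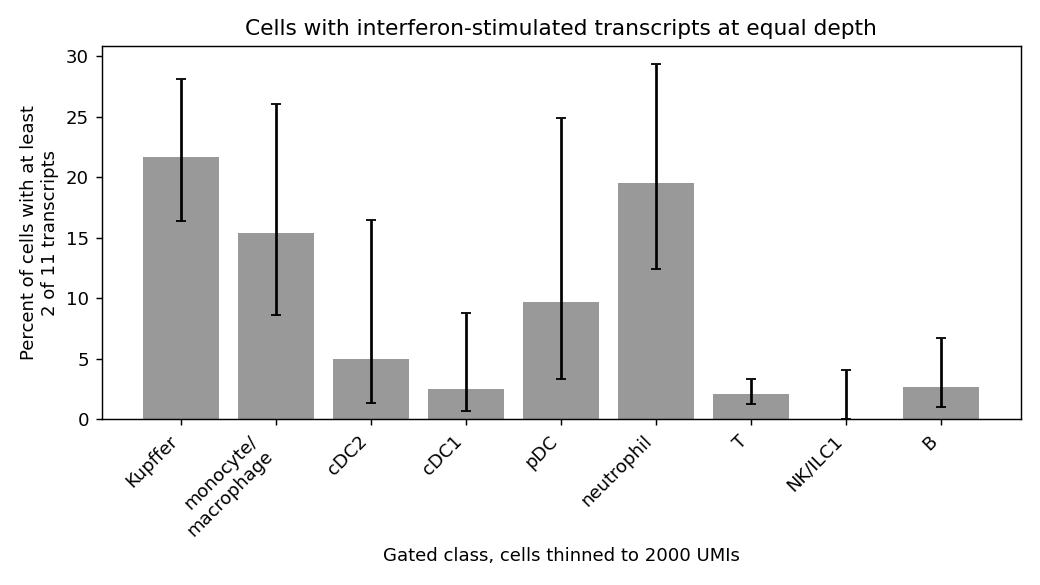
Percent of cells with at least 2 of the 11 transcripts after thinning to 2000 UMIs per cell, for 9 classes, cells of the 4 libraries pooled, with bars from 0 and 95% Wilson intervals. Kupffer cells, neutrophils and monocytes or other macrophages lie at 15.4% to 21.7%, T cells, B cells, NK cells or ILC1 and cDC1 below 3%.

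Within Kupffer cells, those with at least 2 of the 11 transcripts after thinning (24, 10 and 6 in PV2, CV1 and CV2) were set against those with none (45, 24 and 14). Thinning served only to place the cells. The test used their full counts, on genes that were not used for that split. None of 18 other listed genes passed edgeR's test (0.23% of all genes called), and 1 had an unadjusted p under 0.05. That gene was Oas3 (1.47 ± 0.43, adjusted p = 0.31). The differences lay above 0 for 16 of the 18, with a median of 0.39 against -0.01 over all genes. Irf7 (0.07 ± 0.25), Ifitm3 (-0.03 ± 0.18) and Bst2 (0.09 ± 0.23), which are high in Kupffer cells as a class, were near 0.

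The zone comparison asked whether cells near the portal vein differ from those near the central vein. None of the listed genes passed the test of PV against CV within a class. In T cells 0 of 25 genes tested were called by edgeR (0% of all genes called), 1 had an unadjusted p under 0.05, and DESeq2 called 0. That gene was Ifit1, at 8.0 and 7.16 CPM in PV and 11.6 and 18.0 in CV (-1.02 ± 0.43, unadjusted p = 0.043). The same counts by edgeR and DESeq2 were 0 in B cells (6 genes tested, 0 at the unadjusted threshold), in cDC1 (12 tested, 2) and in neutrophils (5 tested, 0), where 0% of all genes were called as well. In cDC1 the 2 were Ifi27l2a (1.06 ± 0.44, unadjusted p = 0.034) and Slfn5 (0.76 ± 0.32, unadjusted p = 0.035). Ifi27l2a stood at 108 and 259 CPM in PV and 54.1 and 123 in CV, which overlap. Without PV1 it was called in cDC1 (1.61, adjusted p = 0.00033).

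Classes with as few as 4 cells in a library were added to the zone test. In Kupffer cells 0 of 30 genes were called by edgeR (0.0194% of all genes), 0 had an unadjusted p under 0.05, and DESeq2 called 0. Oasl1 had the smallest p and stood at 274.5 and 54.7 CPM in PV and 164 and 48.4 in CV (-0.80 ± 0.43, unadjusted p = 0.061). The 274.5 came from the 4 Kupffer cells of PV1. In monocytes or other macrophages 0 of 16 were called by edgeR and by DESeq2 (0.72% of all genes), with 0 at the unadjusted threshold. In NK cells or ILC1 0 of 7 were called by either tool (0.135%), and 1, Irf9, had an unadjusted p under 0.05 (2.51 ± 0.71, adjusted p = 0.17).

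In the sum of all retained cells, 0 of 36 genes were called by edgeR and by DESeq2 (0% of all genes), and 1 had an unadjusted p under 0.05. That gene was Ifi205, the gene highest in cDC1 (0.98 ± 0.19, unadjusted p = 0.0029). PV libraries held 34 and 21 cDC1 against 12 and 12 in CV, and whether fewer cells or less RNA per cell set such a sum cannot be told apart in it. Without PV2, 3 genes were called in this sum, namely Ifi205 (1.09), Irf7 (-1.21) and Ifi204 (-1.39). PV2 held 120 Kupffer cells and PV1 4, while the CV libraries held 57 and 38. The difference of zone effects between T cells and B cells, cDC1 or neutrophils was past the test for 0 of 22 genes in each case (edgeR, 0% of all genes for B cells and cDC1 and 0.0196% for neutrophils). At an unadjusted p under 0.05 there were 2, 1 and 0 genes, and DESeq2 was not run on these differences.

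**Figure D5:**
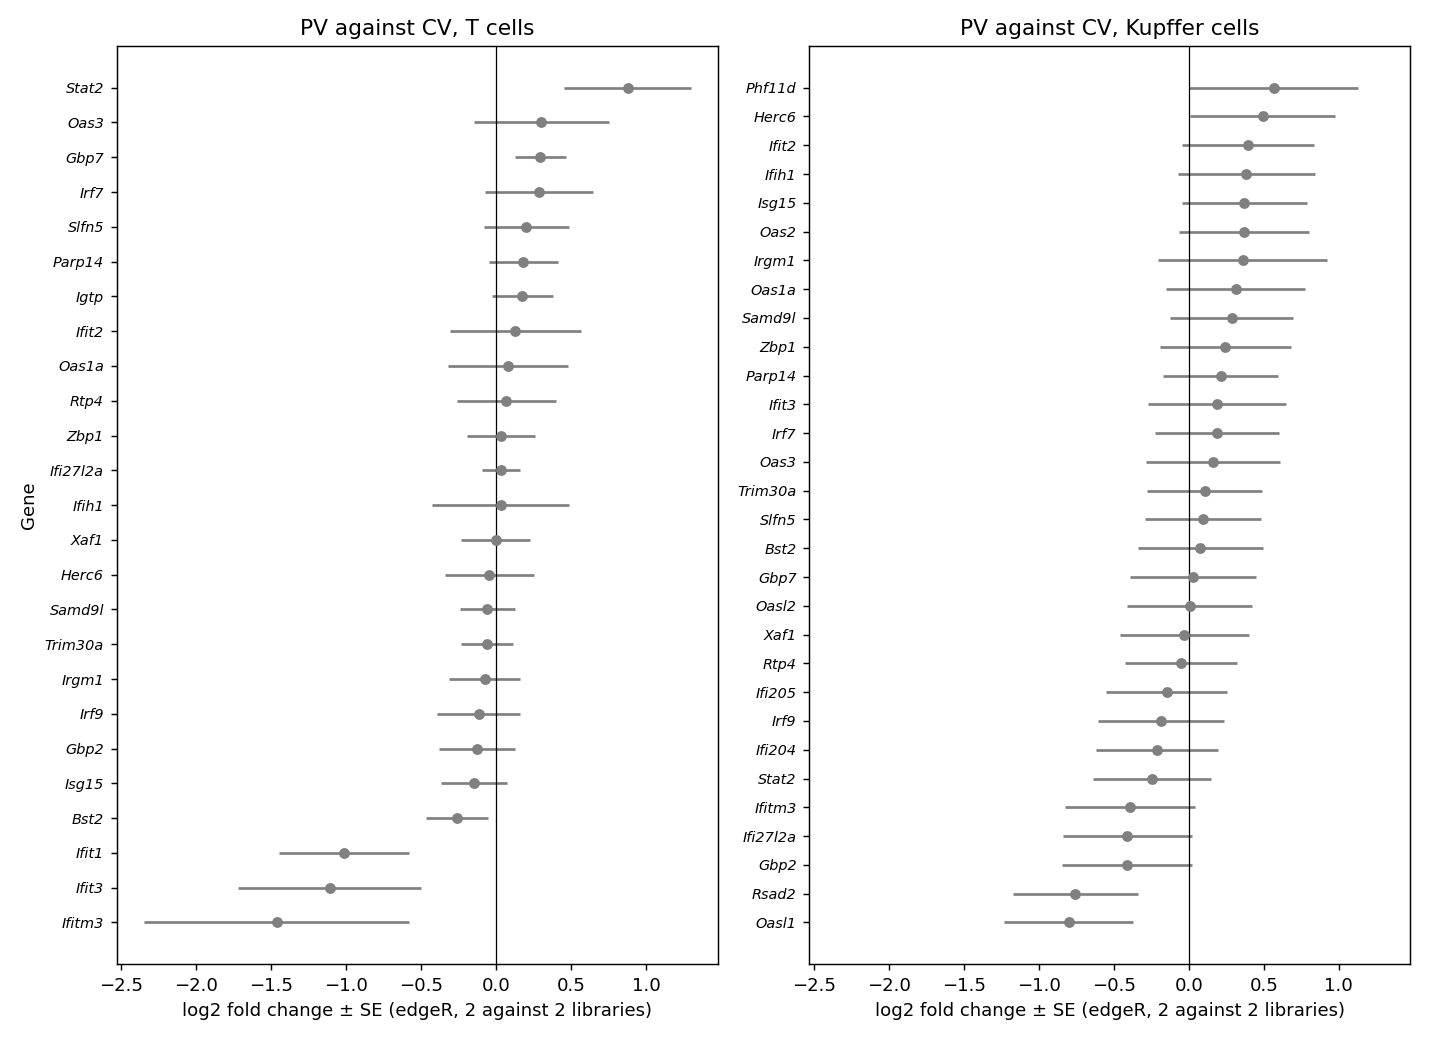
The log2 fold change ± SE of PV against CV for each tested gene in T cells (left) and Kupffer cells (right), 2 against 2 libraries, edgeR quasi-likelihood test, all in grey since none passed it. Most points lie within 0.5 of 0, and Ifitm3, Ifit3 and Ifit1 in T cells and Oasl1 and Rsad2 in Kupffer cells lie lowest.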

How the data were processed

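Single-cell libraries of liver leukocytes were made with a 10x 3′ kit, per the labels' protocols. The deposited files hold raw counts (UMIs), a matrix for each library, and no barcode has fewer than 500 UMIs; Cell Ranger 4.0.0 and mm10 are named in the submitters' processing notes. For the annotation and the cell calling, settings were not given in the sources used here. Total counts per library ran from 2741760 to 4373488.

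Cells had at least 200 genes and at most 10% mitochondrial UMIs. A cell joined the class with the highest share of markers detected, at least 3; 34 cells joined none. No doublet caller was run; instead 80 cells with 50% of another lineage's markers, 57 of them Kupffer cells, were left out as an alternative. Counts were summed per class and library and tested with edgeR 4.0.16 in R 4.3.3 (TMM, filterByExpr, Benjamini-Hochberg adjustment over all genes tested, threshold 0.05), with DESeq2 1.42.0 as the other tool. An SE is the log2 fold change over the square root of F. The edgeR script was tested on simulated data. T cell sums of same-zone libraries gave chi-squares of 2.82 (PV) and 3.24 (CV) per degree of freedom, so no library counted as a duplicate. Shares have 95% Wilson intervals; where nothing was counted, the limit given equals 3 counts.

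The members and lists were chosen with earlier results of these data known. Any listed gene could be named; between zones the genes with the smallest p were named. Promoters are RefSeq sequences on GRCm38.p6 and gene positions GENCODE vM21. The cDC1 and cDC2 pair was not tested, since cDC2 reached 10 cells in only 2 libraries. Fits added after the class sizes were seen are called added.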

Additional observations from a re-analysis of the deposited data

How the results depend on the processing

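Of 252 called gene results, 183 kept their direction and their side of the threshold under every setting run, 147 of 2729 values lost the call and 2 changed sign. In Kupffer cells against the mean of the other 6 classes 21 of 24 calls were kept throughout, the exceptions being Zbp1, Gbp2 and Trim30a without single libraries, and the count ran from 21 to 32. The 2 sign changes were Ifi27l2a in neutrophils without CV replicate 1, at -0.035 against 3 classes and -0.0064 against 6; over the single libraries left out its values ran up to 1.02 and 1.12. The filter, the tool and the cell gate moved counts of called genes as follows. The cause was not tested. Where a count in this section has no share of all genes beside it, whether genes at large moved alike cannot be read from it. With no filter on low counts, under which more genes are tested, 19 were called in T cells, 21 in cDC1 and 15 in neutrophils (26.5%, 21.9% and 23.9% of all genes), 7 in Kupffer cells against monocytes or other macrophages, and 1 in the zone test of all cells (Ifi205). With DESeq2, 14 were called in T cells against 6 classes, 1 in T cells against NK cells or ILC1, 0 in Kupffer cells against monocytes or other macrophages, and 1 for Cxcr6 T cells. Without cells carrying another lineage's markers, that Kupffer pair gave 2, and 1.65% of all cells held at least 6 of the 11 transcripts. Leaving out each library gave 8 to 18 calls in monocytes or other macrophages against 6 classes, 1 to 4 in the Kupffer pair, 0 to 4 for Cxcr6 T cells, 0 to 1 for zones in cDC1, 0 to 3 for zones in all cells, 0 to 1 for the zone difference of cDC1 and T cells (Ifitm3), 1.30% to 2.86% of all cells and 9.09% to 12.3% of Kupffer cells with at least 6 of the 11 transcripts. That share was 28.3% of Kupffer cells and 6.21% of all cells for at least 4 transcripts, 5.97% and 1.61% with shared barcodes kept, and 0% and 0.200% after thinning. With 2 pairs and no shared origin in the labels, replicate numbers do not pair the libraries (correlations of same-numbered deviations -0.0883 to 0.234); with the replicate number as a block, 1 gene was called in the zone test of cDC1 (Ifi27l2a, 1.09, adjusted p = 0.025) and 1 in NK cells or ILC1 (Irf9, 2.63, adjusted p = 0.0077), and 0 in the other zone tests. The pair of T cells and NK cells or ILC1 could be fitted without PV replicate 1 only. Depth limits the sparse genes: a count of 3 UMIs equals 10.7 CPM in neutrophils and 1.82 in cDC1.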
